A study of Petunia x hybrida with 7 samples.

Results

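The regions described here were listed as PhDEF peaks in star petals of petunia and in neither wild-type nor wico petals. Binding was read by ChIP-seq (chromatin immunoprecipitation with sequencing), in which DNA fragments held by an antibody against PhDEF are sequenced and places with many fragments are called as peaks. Peaks of the 3 genotypes on the 7 long scaffolds were pooled, and peaks that shared at least 1 bp were merged into regions. Of 5073 such regions, 620 held star peaks and no others. Each of the 620 held a single star peak, so that regions and peaks can be counted alike. The regions were chosen by the listed peak intervals of the 3 genotypes, which are measured values, so all values below are descriptions without a test.

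In star petals the epidermis carries a mutant phdef allele and the mesophyll is wild-type. In wico petals the mesophyll is mutant and the epidermis is wild-type. Wild-type petals have PhDEF in both layers. The petals, tube and limb together, came from cultivar R27 at flower stage 8, and each genotype was represented by 2 immunoprecipitated libraries labelled as biological replicates. A single input library, sequenced without immunoprecipitation, came from wild-type petals, and no input of star petals was analysed here. In whole petals, the number of cells that bind PhDEF at a site and the binding in each of them cannot be told apart.

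PhDEF is a class B MADS-domain transcription factor, the petunia counterpart of DEFICIENS in snapdragon and APETALA3 in Arabidopsis. Class B proteins specify petals and stamens and bind DNA as dimers at CArG boxes, with a partner of the GLOBOSA or PISTILLATA type. The epidermis and the mesophyll of a petal descend from different layers of the meristem, which is why a chimera can lack the protein in a single layer.

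The mesophyll also holds PhDEF in wild-type petals, yet by the rule none of the 620 regions appears in the wild-type list. A region below the authors' reporting threshold and an unbound region look alike in these lists. The files hold no read counts, so the depth behind a missing peak is unknown. The name of the set therefore says where a peak was listed, not in which cells PhDEF was bound.

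The star list held 2216 peaks, and 1781 of them lay on the 7 long scaffolds. The 620 star-only peaks were 34.8% of these (exact 95% interval 32.6 to 37.1%), and the other 1161 are called shared star peaks. Among the shared peaks, 817 lay in regions held by all 3 lists, 208 in regions of star and wico, and 136 in regions of the wild type and star. On the same scaffolds, 1561 regions were found only in wico and 629 only in the wild type. All intervals given for shares and medians cover counting error over peaks only, because peaks of 1 list are not replicates of a genotype.

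The star-only peaks stood low in the star list. Peaks were ranked by their deposited signal, a value without a stated unit that sums the signals of the 2 replicates, so that percentile 100 stands for the highest signal. The signals of the star-only peaks ran between 7.20 and 16.3 with a median of 8.49, whereas shared star peaks ran between 7.20 and 29.0 with a median of 10.4. The median percentile was 29.3 for star-only peaks (95% interval 25.9 to 32.3) and 61.9 for shared star peaks (59.7 to 64.8). Star-only peaks in the upper 20% of the star list numbered 20, or 3.23% of the set, against a background of 19.5% of all star peaks on these scaffolds. At the other end, 39.0% of star-only peaks (35.2 to 43.0%) and 9.82% of shared star peaks (8.17 to 11.7%) lay in the lowest 20% of the list.

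The share of star-only peaks fell along the ranks, with 1 interruption. In the weakest 10% of the list, 122 of 169 peaks on these scaffolds were star-only, a share of 72.2% (64.8 to 78.8%). In the strongest 10%, 7 of 168 peaks were star-only, a share of 4.17% (1.69 to 8.40%). The bands between followed the same order except for percentiles 20 to 40, where the share was 42.4% in the lower band and 46.0% in the higher one, with overlapping intervals.

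**Figure D1:**
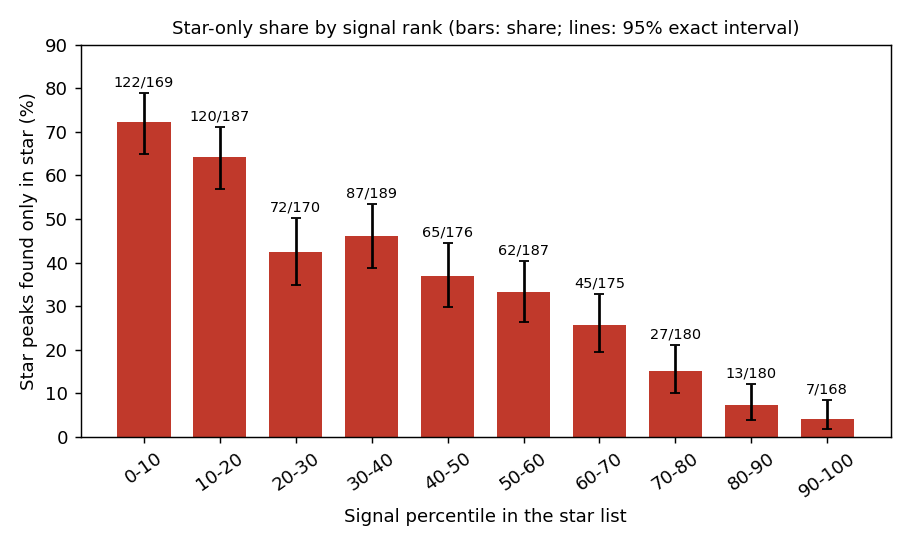
Share of star peaks on the 7 long scaffolds that were found only in star (vertical axis, %), in bands of 10 signal percentiles of the star list (horizontal axis). Bars give the share, lines the exact 95% interval and labels the counts; the share was 72.2% in the weakest band and 4.17% in the strongest.

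A low place in their own list was common to the sets held by a single genotype. The median percentile was 29.3 for star-only peaks in the star list, 29.0 for wico-only peaks in the wico list (27.2 to 30.9) and 19.6 for wild-type-only peaks in the wild-type list (16.98 to 21.5). Within the star list, the peaks shared with a single other genotype stood between the star-only set and the peaks of all 3 lists. Their median percentile was 47.8 for peaks shared with wico alone (43.5 to 53.6) and 54.6 for those shared with the wild type alone (42.2 to 62.4), whereas peaks of all 3 lists had a median of 67.2 (63.3 to 70.3).

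The irreproducible discovery rate (IDR) of a peak estimates how many of the peaks ranked at least as high fail to repeat in the other replicate, as a share, and the authors' lists end at a global IDR of 0.1. The median global IDR was 0.0448 for star-only peaks (0.0407 to 0.0498) and 0.00657 for shared star peaks (0.00509 to 0.00786). At a global IDR of at most 0.02 there were 174 star-only peaks, 28.1% of the set (24.6 to 31.8%), against a background of 53.7% of all star peaks on these scaffolds. Above 0.05, close to the end of the list, lay 46.0% of star-only peaks (42.0 to 50.0%) and 15.4% of shared star peaks (13.4 to 17.6%). Of the 464 star peaks on these scaffolds above 0.05, 285 were star-only. The set nonetheless reached a global IDR of 2.12e-05 at its best. In their own lists, 22.3% of wild-type-only peaks (19.1 to 25.7%) and 41.3% of wico-only peaks (38.9 to 43.8%) had a global IDR of at most 0.02. Above 0.05 lay 55.0% and 34.3% in the same order.

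The 2 replicate columns of the list give the signal of a peak in each star library, without saying which library is which. In the first column the star-only peaks ran between 3.33 and 7.92 with a median of 4.03, and the shared star peaks between 3.33 and 14.3 with a median of 4.90. In the second column the star-only peaks ran between 3.57 and 8.76 with a median of 4.27, and the shared star peaks between 3.57 and 15.8 with a median of 5.56. In both columns the star-only peaks therefore reached about as low as the shared ones and stopped well short of their highest values. The values were also coarse. The 620 star-only peaks took 270 different values in the first column and 275 in the second, and the 6 commonest values covered 42.1% and 43.5% of the peaks. The commonest single value was 3.53 in the first column, at 73 peaks, and 3.89 in the second, at 77 peaks.

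The replicates ranked the star-only peaks differently. Across the 620 peaks the rank correlation of the 2 columns was 0.242, and across the 1161 shared star peaks it was 0.587. All of these peaks come from the same 2 libraries and had passed the same reproducibility filter. The star-only peaks also span a narrower range of signals, so the correlations describe the lists and are not compared by a test. In their own lists, the correlation was 0.599 for wico-only peaks and 0.351 for wild-type-only peaks. Pooled over all ranks, the difference in level between the columns was smaller in the star-only set. On the log2 scale, the first column minus the second had a median of -0.08 for star-only peaks (SD across peaks 0.32) and -0.19 for shared star peaks (SD 0.35). Among peaks with complete intervals in the upper 20% of the list, the order was the other way, at -0.44 for 9 star-only and -0.22 for 315 shared star peaks. This leaves out 11 shortened peaks of the 20 star-only ones in the band, whereas the pooled medians use all peaks. A reversal is thus not shown for the whole band. The first column gave the higher value at 37.6% of star-only and 28.6% of shared star peaks. Differences beyond 2-fold between the replicates were rare in both, at 3 star-only and 11 shared star peaks.

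**Figure D2:**
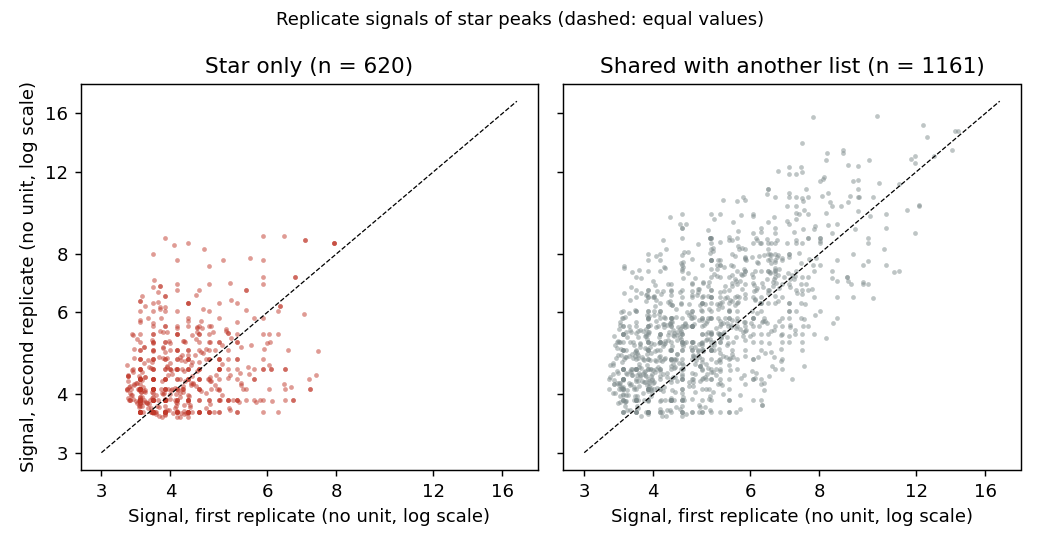
Signal of each star peak in the first replicate column (horizontal) and the second (vertical), both without a unit and on a log scale, for star-only peaks (left, n = 620) and shared star peaks (right, n = 1161). Each point is a peak and the dashed line marks equal values; the star-only peaks stay below 7.92 and 8.76 in the 2 columns.

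The extent of a peak in the 2 replicates overlapped less in the star-only set. The overlap of the replicate peaks covered a median of 64.9% of their joint span at star-only peaks (62.5 to 67.1%) and 75.5% at shared star peaks (74.4 to 76.5%). The summits, the positions of highest signal, lay a median of 52 bp apart between replicates at star-only peaks (43 to 58 bp) and 26 bp apart at shared star peaks (24 to 28 bp). Summits within 100 bp of each other were found at 66.8% of star-only peaks (62.9 to 70.5%) and 89.2% of shared star peaks (87.3 to 91.0%). The peaks found only in the wild type were close to the star-only values, with a median overlap of 64.4% and summits 42 bp apart, whereas peaks found only in wico had a median overlap of 72.0% and summits 30 bp apart.

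In both measures the intervals of the 2 sets stood apart only at the bottom of the list. Among peaks in the lowest 20% whose listed interval was complete, the replicate peaks overlapped over 55.8% of their span at 211 star-only peaks (51.4 to 61.6%) and over 67.8% at 112 shared star peaks (62.1 to 71.9%). The summits in this band lay a median of 83 bp apart at star-only peaks (63 to 115 bp) and 36 bp apart at shared star peaks (29 to 46 bp). In percentiles 20 to 40 the medians were 34 bp at star-only and 39 bp at shared star peaks, and in percentiles 40 to 60 they were 31.5 bp and 33 bp in the same order. In percentiles 60 to 80 they were 30 bp and 23 bp. In the upper 20%, with 9 star-only peaks, they were 43 bp (5 to 74 bp) and 15 bp (14 to 18 bp). The intervals of the 2 sets overlapped in each band above the lowest 20%, so a difference in summit distance at the top is left undecided.

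Width followed the ranks in opposite directions. Star-only peaks had a median width of 386 bp (368 to 408 bp), a lowest width of 103 bp and a highest of 1693 bp. Shared star peaks had a median of 367 bp (357 to 380 bp). Wild-type-only peaks had a median of 387 bp (375 to 404 bp) and wico-only peaks one of 350 bp (341 to 358 bp). Among peaks with complete intervals in the lowest 20% of the list, star-only peaks were wider, with a median of 450 bp (408 to 477 bp) against 350.5 bp for shared star peaks (316 to 377 bp). In percentiles 60 to 80 the median was 330 bp in the star-only set (301 to 413 bp) and 358 bp in the shared set (336 to 379 bp). In the upper 20%, where 9 star-only peaks with complete intervals remained, it was 307 bp (250 to 472 bp) against 405 bp (388 to 421 bp). The rank correlation of width with signal was -0.191 across the 546 star-only peaks with complete intervals and 0.187 across the 1131 shared ones. By the same measure it was -0.0654 for wild-type-only peaks and -0.0157 for wico-only peaks. For the peaks of these lists shared with another list it was 0.166 and 0.201 in the same order. A listed interval is the joint span of both replicate peaks where nothing was removed, so that replicate peaks that overlap less give a wider interval by construction.

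**Figure D3:**
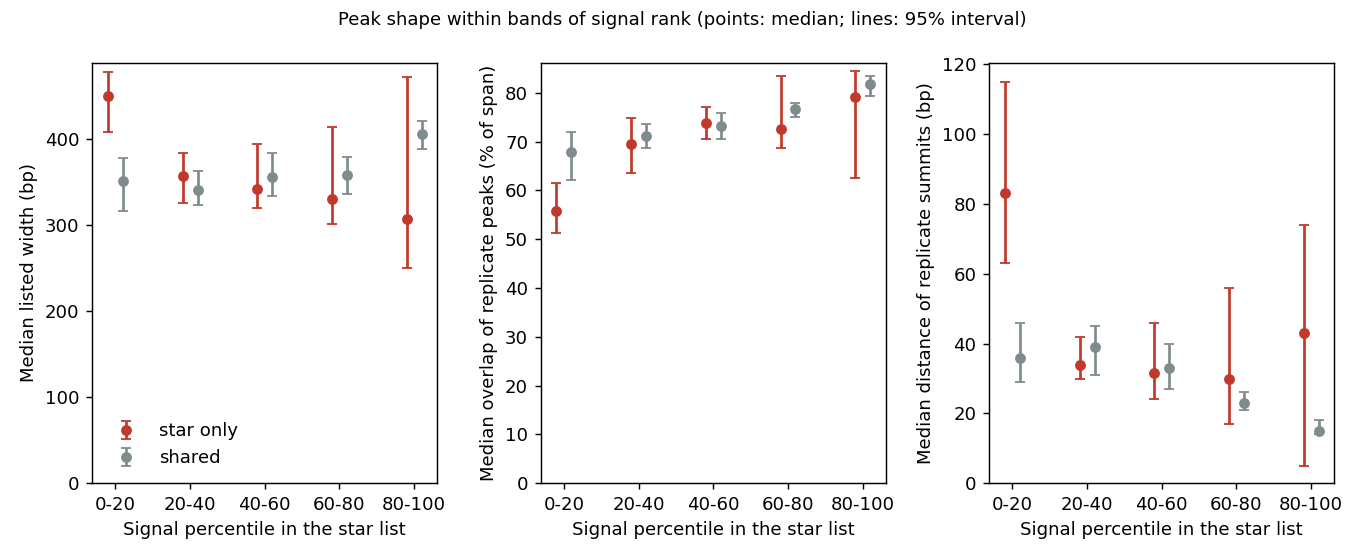
Median listed width (left, bp), overlap of the replicate peaks in % of their joint span (middle) and distance between replicate summits (right, bp) in bands of 20 signal percentiles, for star-only peaks (red, left point of each pair) and shared star peaks (grey), complete intervals only. Lines are 95% intervals of the median; the sets stand apart in the lowest band, at 450 against 350.5 bp, 55.8 against 67.8% and 83 against 36 bp.

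The 10 strongest star-only regions were mostly parts of longer peaks. At 74 star-only peaks, 11.9% of the set (9.49 to 14.8%), the listed interval was shorter than the joint span of the replicate peaks, against a background of 5.84% of all star peaks on these scaffolds. At shared star peaks this was so at 30, or 2.58% (1.75 to 3.67%). The 74 came from 53 pairs of replicate peaks, and the part of the span left out had a median of 160 bp, with 13 bp the least and 994 bp the most. Of these pairs, 15 were listed as 2 star-only regions and 3 as 3 star-only regions. The lists were deposited under a name that says that input was removed, but the step is not described. Of 165 listed edges in the whole star list that had been moved in this way, 43 lay at the same base as a moved edge of the wild-type or wico list. Shortened intervals were about as frequent at wild-type-only peaks, at 12.2% (9.78 to 15.1%), and less so at wico-only peaks, at 3.59% (2.72 to 4.63%).

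The top of the star-only set shows what this does. Among its 10 strongest peaks 7 were shortened, and these 10 came from 6 pairs of replicate peaks. Among the 20 strongest 11 were shortened, and among the 50 strongest 15. The strongest place in the set lay on HiC_scaffold_3. It appeared there as 3 regions, at positions 85249613 to 85249871, 85250305 to 85250622 and 85250829 to 85251791, all cut from the same span of 2466 bp. Its signal was 7.92 in the first replicate column and 8.42 in the second, rank 127 of 2216, and the nearest peak of another list, a wico peak, was 134 kb from the closest of the 3 regions. The next place lay on HiC_scaffold_4, as 2 regions at positions 90413057 to 90413361 and 90413563 to 90414040. Its signal was 7.03 and 8.55 in the 2 columns, and its closest wico peak was 119 kb away. One more place of this kind on HiC_scaffold_6, at positions 51023771 to 51024980 and 51025284 to 51025444, had signals of 6.74 and 7.14, and its replicate summits lay 333 bp apart. At each of these places both star libraries carried similar signals, and the 7 regions stand for 3 pairs of replicate peaks.

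**Figure D4:**
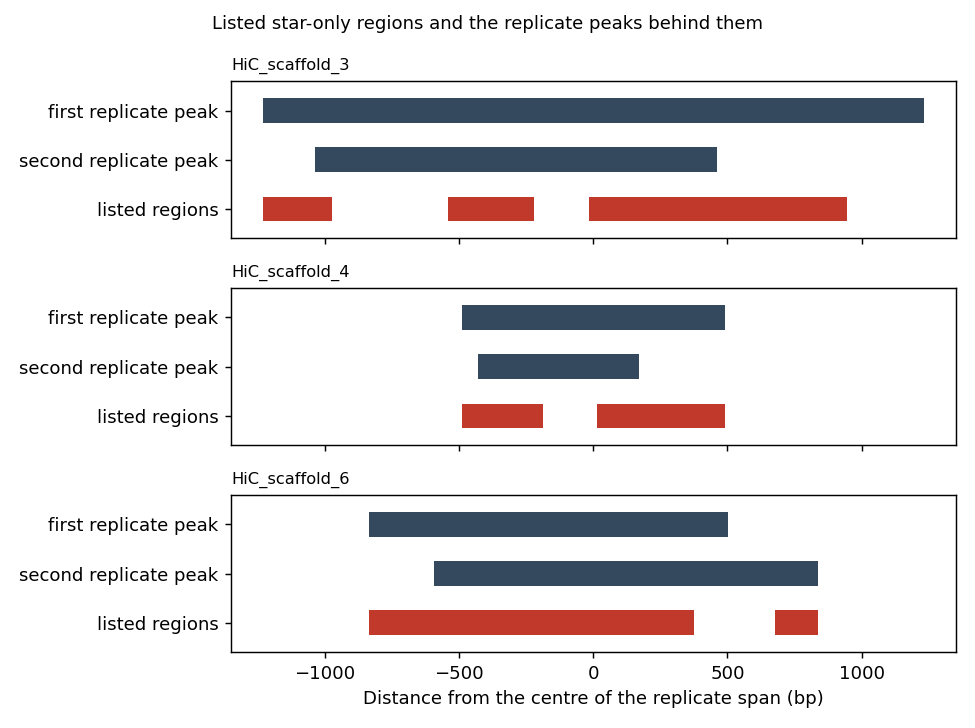
The 3 star-only places with the highest lower-of-both replicate signal, as distance from the centre of the replicate span in bp (horizontal axis). Dark bars are the peaks of the 2 replicates and red bars the regions listed; a span of 2466 bp on HiC_scaffold_3 is listed as 3 separate regions.

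On 3 scaffolds the strongest star-only peak had a complete interval and stood at percentile 78.8 or higher of the star list by each replicate column. On HiC_scaffold_6, the peak at positions 15536271 to 15536575 was 305 bp wide with signals of 6.44 and 8.76, a global IDR of 6.52e-05 and replicate summits 18 bp apart. It was the sixth entry by signal in the set and ranked 178 in the star list, and the nearest wico peak was 104 kb away. On HiC_scaffold_5, the peak at positions 43484610 to 43485081 had signals of 5.89 and 8.74 and a rank of 217, and the nearest wild-type peak was 72.1 kb away. On HiC_scaffold_2, the strongest star-only peak lay at positions 143339747 to 143340024 with signals of 5.88 and 7.13, only 7.45 kb from a region held by star and wico. In these 3 peaks the second column was the higher one.

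The strongest star-only peak of HiC_scaffold_1, like that of HiC_scaffold_7, leaned on a single replicate column. On HiC_scaffold_1 it lay at positions 9479240 to 9479546, with a signal of 4.31 in the first column and 8.42 in the second. On HiC_scaffold_7 it lay at positions 157359987 to 157360315, with signals of 4.06 and 8.36. By the first column alone these peaks stood at percentiles 43.8 and 33.7 of the star list, and by the second at 91.9 and 91.4. The most uneven star-only peak in this direction, at positions 111944957 to 111945388 of HiC_scaffold_6, had signals of 3.92 and 8.67. The most uneven in the other direction was a pair of replicate peaks listed as 2 regions, at positions 69998584 to 69999290 and 69999563 to 69999688 of HiC_scaffold_2, which had signals of 7.17 and 4.10. The lowest summed signal, 7.20, was shared by 14 star-only peaks, all with signals of 3.53 and 3.67, among them the peak at positions 18828784 to 18829055 of HiC_scaffold_1. The widest star-only peak, at positions 110263399 to 110265091 of HiC_scaffold_3, had signals of 3.64 and 5.83 and replicate summits 274 bp apart.

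The 620 regions were spread over all 7 scaffolds. HiC_scaffold_3 held the most, 122, followed by HiC_scaffold_7 with 109 and HiC_scaffold_4 with 100, and HiC_scaffold_1 held the fewest, 66. As a share of the star peaks on the scaffold they were lowest on HiC_scaffold_1, at 25.0% (19.9 to 30.7%), and highest on HiC_scaffold_7, at 42.1% (36.0 to 48.4%). The intervals of these extremes do not overlap, while those of neighbouring scaffolds in this order do. The star-only peaks of HiC_scaffold_7 were also weaker and wider, with a median percentile of 23.9 and a median width of 441 bp. On HiC_scaffold_1 the median percentile was 27.5 and the median width 328 bp. Per length of scaffold, the star-only regions numbered 0.89 per Mb on HiC_scaffold_4 and 0.882 per Mb on HiC_scaffold_3, and 0.438 per Mb on HiC_scaffold_2. Scaffold lengths were approximated by the last base of the outermost peak in any list.

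Star-only regions lay in the middle of scaffolds more often than shared star peaks did. The middle 40% of the length held 195 of the 620, or 31.5% (27.8 to 35.3%), against 21.4% of shared star peaks (19.1 to 23.9%) and 25.3% of all 5073 regions (24.1 to 26.5%). In percentiles above 40 the middle held 33.8% of star-only (27.6 to 40.5%) and 21.02% of shared star peaks (18.3 to 23.9%). In percentiles up to 40 it held 30.2% (25.7 to 34.9%) and 22.6% (18.1 to 27.6%) in the same order, with overlapping intervals. The outer 10% of the length, 5% at each end, held 18.2% of star-only (15.3 to 21.5%) and 21.4% of shared star peaks (19.1 to 23.9%), again with overlapping intervals. The wild-type-only peaks resembled the star-only set in the middle share, at 29.4% (25.9 to 33.1%), and the wico-only peaks did less, at 25.0% (22.9 to 27.2%).

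Star-only regions lay farther from the nearest wild-type or wico peak than shared star peaks did. Within 100 kb of such a peak were 60.5% of star-only regions (56.5 to 64.4%) and 75.5% of shared star peaks (72.9 to 77.9%). The distance of random positions was not computed, so whether these distances are long for the genome is not known. The median distance between edges was 69.6 kb (55.9 to 78.4 kb), with 25% of regions closer than 19.95 kb and 25% farther than 164 kb. For shared star peaks, the nearest wild-type or wico peak outside their own region lay a median of 29.1 kb away (25.6 to 32.7 kb). Distances of at most 10 kb were found at 100 star-only regions, 16.1% (13.3 to 19.3%), and at 29.0% of shared star peaks (26.4 to 31.7%). At most 1 kb away were 21 star-only regions. The medians of the star-only set stayed above those of shared star peaks in each band of 20 percentiles. The gap was narrowest in percentiles 60 to 80, at 36.7 kb for star-only (21.4 to 77.1 kb) and 29.98 kb for shared star peaks (22.5 to 39.6 kb). The intervals of the 2 sets were separate only in percentiles 40 to 60 and 80 to 100 and overlapped in the other bands. Percentiles 80 to 100 held 20 star-only regions, and the 10 strongest of these came from 6 pairs of replicate peaks. Pieces of a pair lie at nearly the same distance but were counted separately, so the interval of this band counts some places more than once.

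**Figure D5:**
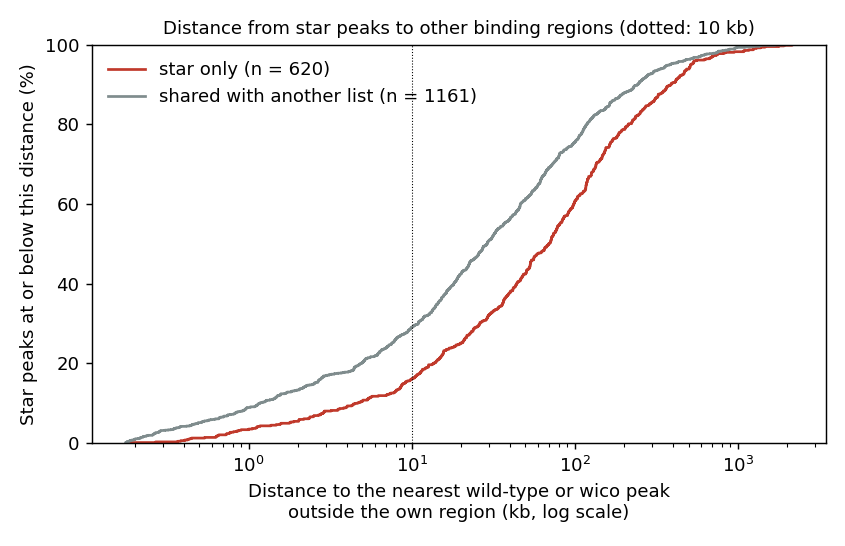
Share of star peaks (vertical axis, %) whose nearest wild-type or wico peak outside their own region lies at or below a given distance (horizontal axis, kb, log scale), for star-only peaks (red, n = 620) and shared star peaks (grey, n = 1161). At 10 kb, marked by the dotted line, the curves stand at 16.1% and 29.0%.

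The nearest peak was a wico peak for 367 star-only regions and a wild-type peak for 253, from lists with 3692 and 2687 peaks on these scaffolds. The median distance was 85.2 kb to the nearest wico peak and 117 kb to the nearest wild-type peak. Of the 100 regions within 10 kb of another list, 32 had a wico-only region as their neighbour, 28 a region of the wild type and wico, and 16 a region of all 3 lists. At any distance, the counts among all 620 regions were 221, 143 and 101 in the same order. These kinds of region numbered 1561, 1105 and 814, the same order as their counts. The order did not hold for every kind of region. Wild-type-only regions, 629 in number, were the neighbour of 102 star-only regions at any distance. Within 10 kb, they and the 208 regions of star and wico were the neighbour of 10 each. The nearest shared star peak lay a median of 252 kb from star-only regions (207 to 313 kb). A longer distance is largely set by the rule, since each shared star peak lies in a region with a wild-type or wico peak. Shared star peaks are also fewer than the peaks of those lists. Counting regions of every kind as neighbours, star-only regions lay a median of 46.8 kb from the next region (38.7 to 54.0 kb). The same measure was 37.8 kb for wico-only regions (33.9 to 42.0 kb), 36.9 kb for wild-type-only regions (29.6 to 43.8 kb) and 32.0 kb for all regions (30.1 to 34.3 kb).

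Few star peaks lay close to the limit of 1 bp that the rule uses. The star-only region nearest to another list lay at positions 93033826 to 93033928 of HiC_scaffold_7, 180 bp from a wico peak. It was a piece of 103 bp, cut from a span of 950 bp, with signals of 5.10 and 5.41, and the same pair of replicate peaks also gave a shared star peak. This was so at 2 of the 620 regions. The next, at positions 70877821 to 70878506 of HiC_scaffold_1, was 269 bp from a wico peak with signals of 3.86 and 3.57, and the third, at positions 20799164 to 20799420 of HiC_scaffold_5, was 368 bp from one with signals of 4.22 and 4.11. On the other side of the rule, the shared star peak with the shortest overlap shared 51 bp with a peak of another list, at positions 95827583 to 95828056 of HiC_scaffold_1. Its signals were 3.53 and 3.67. The overlaps next in length were 147 bp, at positions 33725697 to 33725973 of HiC_scaffold_3, and 159 bp, at positions 52110659 to 52110817 of HiC_scaffold_4. Both were shortened intervals, and the second was overlapped over its whole width of 159 bp, so it was short and not close to the limit. The median overlap of shared star peaks was 342 bp, and no shared star peak had an overlap under 50 bp.

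Isolation did not go with a single level of signal. The 11 star-only regions more than 1000 kb from any peak of the other lists stood between percentiles 0.54 and 71.9 of the star list, with a median of 31.2. The farthest, at positions 31509090 to 31509415 of HiC_scaffold_3, lay 2161 kb from the nearest wico peak, and its signals were 3.35 and 4.41. The second farthest, on the same scaffold at positions 31742465 to 31743309, lay 1927 kb away with signals of 3.53 and 4.10. The third, at positions 73556849 to 73557609 of HiC_scaffold_2, lay 1786 kb away with signals of 3.92 and 3.89. These 3 regions stood at percentiles 12.3, 10.1 and 13.4 of the star list.

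Some star-only regions formed groups of their own. Within gaps of at most 10 kb, 58 of the 620 formed 27 runs of at least 2 regions. No such count is given for other sets, so whether this is few or many is not known. In 17 of these runs, with 37 regions, all members came from a single pair of replicate peaks, as described above. The other 10 runs held 21 regions from more than 1 pair. The longest runs held 3 regions, and only 1 of these runs drew on more than 1 pair. That run came from 2 pairs, and 2 of its 3 regions were pieces of the same pair. It spanned positions 148536397 to 148546739 of HiC_scaffold_2, where its highest summed signal was 8.67, near the median of the set.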

How the data were processed

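Each genotype had 1 deposited peak list with no header, in 21 columns laid out as the idr program writes them for 2 replicates. Lists were assigned to genotypes by the library numbers in their names. The submitters' processing notes name Bowtie2 2.4.2, MACS2 and bedtools without saying what each did, and the build is not given in the sources used here. Positions are counted from 1 in a scaffolded assembly. Chromatin was cross-linked with disuccinimidyl glutarate (2.5 mM, 1 h) and formaldehyde (1%, 5 min), per the labels.

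The signal deposited by the authors (column 7) is the sum of 2 replicate signals (columns 15 and 19); its unit is not stated. The global IDR was taken from the −log10 value deposited by the authors (column 12).

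Peaks were merged at 1 bp of overlap (Python 3.11.15, pandas 2.3.3, numpy 2.4.6; intervals by scipy 1.17.1). Percentiles were taken over the whole star list. Shares have exact Clopper-Pearson 95% intervals and medians order-statistic intervals. No test was made, since each list combines both replicates; the depth is unknown. On simulated lists the code found 1000 of 1000 star-only peaks placed among 3000, with their distances. Alternatives for overlap, IDR, scaffolds, ranking and distance were run.

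The members and lists were chosen with earlier results of these data known. Named regions followed a rule: the strongest of each scaffold, the 3 highest lower replicate signals, the extremes of replicate ratio, signal, width and distance, the 3 shortest overlaps outside the set, and the densest run. No genome was used here, so genes and CArG boxes near the regions were not analysed here.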

Additional observations from a re-analysis of the deposited data

How the results depend on the processing

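Of 84 recomputed values under 14 alternatives, 54 stayed within the counting interval of the value given above or, for the number of regions, within 1.5 times of it. With all 3 lists at a global IDR of at most 0.02 there were 251 star-only regions, 26.3% of star peaks, with a median percentile of 61.1, a median width of 344 bp, a median log2 replicate ratio of -0.14, a median distance of 93.7 kb and a replicate rank correlation of 0.0188. With the star list alone at that limit there were 174, 18.2% of star peaks, with a median percentile of 57.8, a median width of 328 bp, 20.7% within 10 kb and a correlation of -0.0162. These percentiles are higher by construction, since the weak star peaks are left out. With the other lists alone at that limit, 45.6% of star peaks were star-only, at a median of 107.8 kb and with 12.6% within 10 kb, since fewer peaks remain to overlap.

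With reciprocal overlap of at least 50% the star-only share was 38.1%, the median distance 53.7 kb and the share within 10 kb 23.3%. With centres at most 100 bp apart counted as shared, the share was 40.9%, the median percentile 32.8, the share at a global IDR of at most 0.02 34.0%, the distance 46.8 kb, the share within 10 kb 28.7% and the correlation 0.317. Both settings move peaks that overlap another list into the set by construction. Over all scaffolds the share was 38.0%, with 13.3% within 10 kb and a correlation of 0.322. Ranked by the first replicate column alone the median percentile was 33.1, and the outer 5 Mb at each end held 12.4% of regions. Over all scaffolds the share within 10 kb was taken of 842 regions, but only 653 had a peak of the other lists on their scaffold. The rest counted as not within 10 kb, which lowers this share by construction. The cause of the other shifts over all scaffolds and by column was not tested. Joining the pieces of replicate peaks, which was chosen after seeing the data, left 597 regions and moved none of the values beyond its interval.

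Ranked by either replicate column or by the IDR, the median percentile of star-only peaks lay between 27.5 and 33.1, and that of shared star peaks between 61.0 and 62.9. No paired analysis was possible because the lists merge the replicates of a genotype and do not number their columns, and the overlaps could not be recomputed without 1 replicate for the same reason.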

Other observations

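Outside the 7 long scaffolds, 435 star peaks were listed, and 222 of them, or 51.0% (exact 95% interval 46.2 to 55.8%), were overlapped by neither other list. These star-only peaks lay on 204 scaffolds. Their median percentile in the star list was 33.6 (28.1 to 42.2) and their median width was 372.5 bp.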
